A study of Mus musculus with 5 samples.

Results

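Atrial myocyte genes are described here from 5 heart libraries of calcineurin transgenic mice. The set holds 8 genes, Myl1, Myl4, Myl7, Sln, Mybphl, Bmp10, Kcnj3 and Kcnj5, taken by symbol from the 19061 gene rows of each deposited file. All mice were of the C57BL/6 strain and carried the MHC-CnATg transgene, an active calcineurin driven in heart muscle cells by a myosin heavy chain promoter, and no mouse without the transgene is among them. The JIB-04 group (3 libraries) received JIB-04, an inhibitor of Jumonji histone demethylases, at 50 mg/kg and 3 doses per week from 4 weeks of age. The vehicle group (2 libraries) received vehicle on that schedule, and hearts of both groups were collected at postnatal day 158. In 1 title, that of JIB-04 replicate 3, the transgene abbreviation is written with another letter, while the genotype label matches the others. The labels do not say which chambers of the heart were taken, nor whether the libraries of a group stem from different animals, so p-values measure only the spread between these libraries.

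Atrial and ventricular heart muscle cells build their contractile filaments from different versions of the same parts. In the adult mouse, the atria use the light chains Myl7 and Myl4 where the ventricles use Myl2 and Myl3, and they carry sarcolipin (Sln) beside phospholamban (Pln) as a brake on the calcium pump of the sarcoplasmic reticulum. Atrial cells also hold the acetylcholine-gated potassium channel built from the Kcnj3 and Kcnj5 proteins, through which the vagus nerve slows the heart, and right atrial cells secrete the growth factor Bmp10. Some of these genes, among them Nppa and the atrial light chains, are also active in embryonic ventricles and can return in diseased ones.

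The 250 bases before the annotated start are shown for 3 of the genes that differ in level. Myl1 was the most abundant of the set, and Myl7 is the regulatory light chain of the atrium. Bmp10 was low throughout but higher in 1 library than in the others. The sequences are from RefSeq on GRCm38.p6, the assembly of mm10, and run 5′ to 3′ on the strand of the gene, from chr11:5898783-5899032 (minus strand), chr6:87428744-87428993 (plus strand) and chr1:66945057-66945306 (minus strand). Capitals mark matches on either strand to GATAA, to TATAAA, to GGAATG (the MCAT element) and to the CArG box.
Myl7: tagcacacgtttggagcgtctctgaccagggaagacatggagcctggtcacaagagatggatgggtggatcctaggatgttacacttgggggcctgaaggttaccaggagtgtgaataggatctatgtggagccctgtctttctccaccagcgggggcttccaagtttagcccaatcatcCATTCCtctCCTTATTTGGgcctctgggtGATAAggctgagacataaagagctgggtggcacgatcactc
Bmp10: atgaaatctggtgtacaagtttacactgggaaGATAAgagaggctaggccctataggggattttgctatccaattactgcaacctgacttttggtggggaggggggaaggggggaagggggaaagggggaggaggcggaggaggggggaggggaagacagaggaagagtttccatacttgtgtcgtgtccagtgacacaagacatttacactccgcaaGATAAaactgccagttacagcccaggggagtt
Myl1: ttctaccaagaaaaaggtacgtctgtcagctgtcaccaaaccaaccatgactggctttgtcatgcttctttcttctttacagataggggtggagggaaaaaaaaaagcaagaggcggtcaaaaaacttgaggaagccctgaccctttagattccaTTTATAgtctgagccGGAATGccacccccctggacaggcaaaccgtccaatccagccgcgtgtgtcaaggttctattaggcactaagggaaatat
The Myl7 window held a CArG box from 61 to 52 bases before the start, a GATAA match at 41 to 37 and a GGAATG match at 70 to 65. Bmp10 had GATAA matches at 218 to 214 and at 32 to 28 bases before the start. Myl1 had a TATAAA match at 95 to 90 and a GGAATG match at 80 to 75 bases before the start. Over 32851 windows of the same length in that table, 1.47% held a CArG box, 22.6% GATAA, 12.4% TATAAA and 12.6% GGAATG. Of the 7 members in the table, 1 held a CArG box, 3 GATAA, 1 TATAAA and 2 GGAATG. The other strings searched were CANNTG, found in 4 of the 7 and in 66.2% of all windows, and GGTGTGA and the MEF2 site, found in 0 of the 7 and in 3.33% and 0.508% of all windows. No match overlapped another of a different kind among the marked ones, and a match is a string of letters, not a measured binding site.

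The 5 libraries held 32152168 to 37002846 reads on genes, as recovered from the deposited values. Reads of the transgene could also be counted in Ppp3ca, the gene for a catalytic subunit of calcineurin. Ppp3ca stood at 7275, 4341 and 5421 CPM in JIB-04 replicates 1, 2 and 3. Vehicle replicates 1 and 2 had 6082 and 8022 CPM. CPM means counts scaled to library size, here by the authors, and 3 reads correspond to 0.0804 to 0.0977 CPM. Heart muscle cell genes were abundant in every library, with a summed level of 79480 to 94600 CPM in JIB-04 and 89310 to 102300 CPM in vehicle libraries over 11 pan-myocyte genes. The 8 atrial genes together gave 144.2 to 191.6 CPM in JIB-04 and 185.5 to 235.0 CPM in vehicle libraries, of which Myl1 and Kcnj5 made up 86.7% to 91.2%. Of the markers most typical of atrial muscle, Myl7 was low but above the limit of detection, with 41 to 80 reads per library, and Sln, Mybphl and Bmp10 had 0 to 9 reads per library apart from 35 Bmp10 reads in JIB-04 replicate 3. Myl7, Sln, Mybphl and Bmp10 summed to 1.66 to 2.47 CPM over the 5 libraries. In bulk RNA such as this, fewer cells of a type and less RNA per cell cannot be told apart, and so neither can a small share of atrial tissue and a low use of these genes within it.

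Scaled by exon length, the median levels over the 5 libraries fell in the order Myl1 (66.9 CPM per kilobase), Kcnj5 (12.5), Myl4 (6.31), Kcnj3 (6.30), Myl7 (2.27), Sln (0.273), Bmp10 (0.173) and Mybphl (0). The ranges of Myl4, at 5.48 to 9.88 CPM per kilobase, and of Kcnj3, at 2.59 to 8.68, overlapped, as did those of Sln, at 0.188 to 0.404, and Bmp10, at 0.0911 to 0.755. Kcnj3 and Myl7, at 2.02 to 3.64, overlapped only through the lowest Kcnj3 library, JIB-04 replicate 2. The ventricular counterparts were far higher, with Myl2 at 4936 to 7312, Myl3 at 2506 to 3320 and Pln at 1720 to 2300 CPM per kilobase. Nppa, which encodes atrial natriuretic peptide and is not in the set, differed from the genes of the set in this. Nppa had 1162 to 1974 CPM per kilobase in JIB-04 and 1166 to 1637 in vehicle libraries. Other atrial-enriched genes outside the set were not scaled by length.

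**Figure D1:**
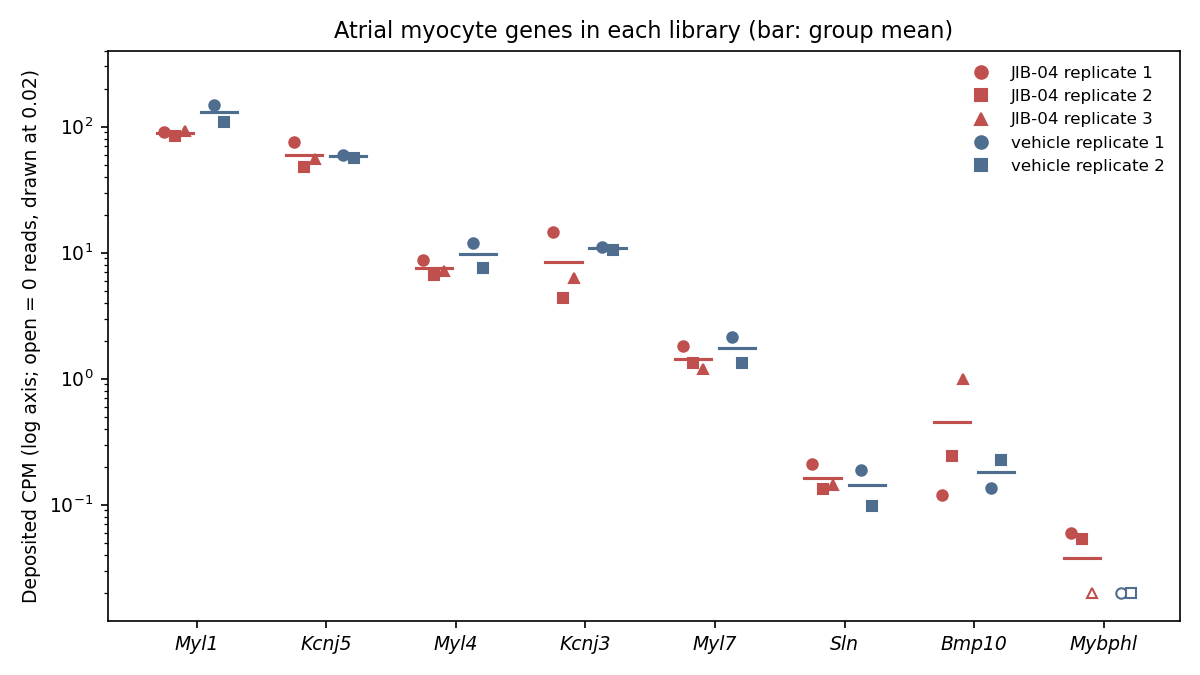
Deposited CPM (log axis) of the 8 atrial genes in each library, 3 JIB-04 libraries left of 2 vehicle libraries for each gene, with a bar at the group mean and open symbols for 0 reads. The genes run from 84.1 CPM or more for Myl1 to 0.06 CPM or less for Mybphl, and the groups are separate for Myl1 alone.

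**Figure D2:**
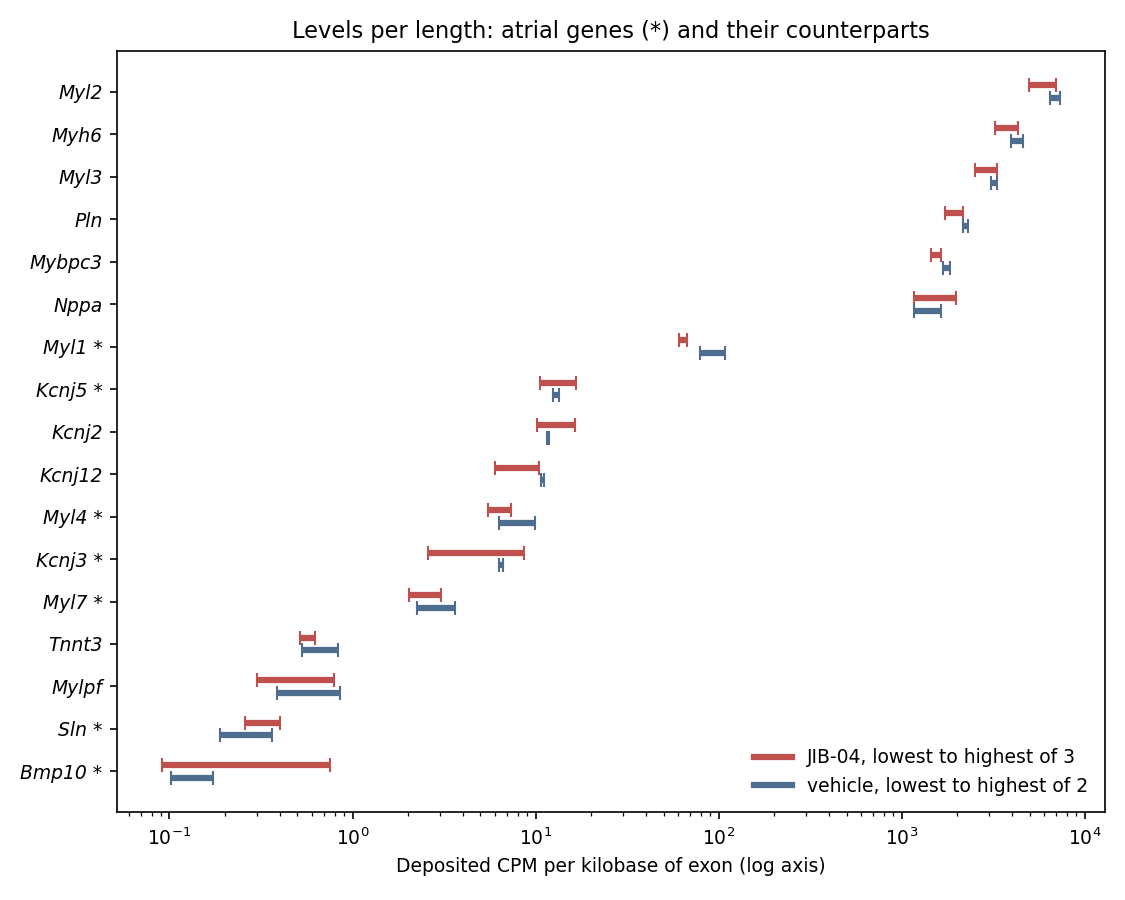
Deposited CPM per kilobase of exon (log axis) for the atrial genes (asterisks) and for other muscle genes, each line running from the lowest to the highest library of a group. Myl2, Myl3, Mybpc3, Pln and Nppa lie at 1162 or more and Myl7, Sln and Bmp10 at 3.64 or less; Mybphl, Kcnj6 and Kcnj9 are not drawn because some libraries had no read.

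Of the 3 myosin light chain genes, Myl1 was the most abundant, and none passed the test. Myl1 (chromosome 1, 66924296 to 66945056 on mm10, minus strand) encodes the essential light chains of fast skeletal muscle and is also used in atrial and embryonic heart muscle. It had 91.0, 84.1 and 92.9 CPM in JIB-04 replicates 1, 2 and 3, against 149.4 and 109.7 CPM in vehicle replicates 1 and 2. The JIB-04 libraries all lay below the vehicle ones, and the vehicle libraries differed from each other more than the JIB-04 libraries did. The means were 89.3 ± 4.6 CPM in JIB-04 (SD, n = 3) and 129.5 ± 28.1 CPM in vehicle (SD, n = 2), and the log2 fold change was -0.52 (SE 0.13). This did not pass the threshold of 0.05 (limma adjusted p = 0.554, from an unadjusted p of 0.0055). Without vehicle replicate 1, the library with the highest value, the log2 fold change was -0.29, and without vehicle replicate 2 it was -0.74.

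Over the 14414 genes tested, limma called 0 (0%) past an adjusted p of 0.05, and 6.44% had an unadjusted p under 0.05. Of the same genes, 12% had the JIB-04 libraries all below the vehicle ones and 10.7% had them all above. Of the atrial genes, 5 were tested, 1 lay below in this sense, 0 lay above, and 1 had an unadjusted p under 0.05. In each case the 1 gene is Myl1. With so few genes, these shares cannot be set apart from those over all genes. DESeq2, a count test on the recovered reads, called 85 of 15151 genes (0.561%), and none of the 8 atrial genes was among them. Myl1 had a DESeq2 adjusted p of 0.0679 there. No gene was called by edgeR's quasi-likelihood test, where 946 genes had an unadjusted p under 0.05, or by limma-voom, where 872 did.

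Myl1 is shared with fast skeletal muscle, and the other genes of that muscle were examined beside it. Of 14 such genes, 6 had enough reads to be tested and 0 passed limma, with a median log2 fold change of -0.08, against -0.01 over all genes tested. This median was -0.17 with edgeR and 0.003 without vehicle replicate 1. Of the 6 genes, 4 lie under 1 CPM, where a pseudocount of 1 compresses differences. Mylpf, the fast skeletal regulatory light chain, had 0.401 ± 0.188 CPM in JIB-04 and 0.469 ± 0.249 CPM in vehicle, and Tnnt3, fast skeletal troponin T, 0.678 ± 0.068 CPM in JIB-04 and 0.798 ± 0.254 CPM in vehicle. Myh1 and Myh2, fast skeletal myosin heavy chains, reached no more than 0.107 CPM and 0.0806 CPM in any library. Casq1, skeletal calsequestrin, at 42.6 ± 18.9 CPM in JIB-04 and 51.9 ± 3.0 CPM in vehicle, and Mybpc2, fast myosin binding protein C, at 13.2 ± 3.9 CPM in JIB-04 and 13.96 ± 2.30 CPM in vehicle, were the list's most abundant genes. The 14 genes summed to 36.2 to 73.7 CPM in JIB-04 and 64.6 to 72.4 CPM in vehicle libraries, and their part in the Myl1 values was not tested. The Myl1 reads of its long and short light chain isoforms were counted as 1 gene.

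Red blood cell and macrophage markers are given beside Myl1, and 0 of either list passed limma. Of 7 red blood cell markers, 7 had negative values and 5 had the JIB-04 libraries all below the vehicle ones, a count in which Hba-a1 and Hba-a2 hold identical values. Over all genes tested, 12% lay below in this sense and 46.9% had positive values. They summed to 1190 to 2395 CPM in JIB-04 and 3253 to 4989 CPM in vehicle libraries, with vehicle replicate 1 the highest, as for Myl1, while JIB-04 replicate 2 was the highest JIB-04 library here and the lowest for Myl1. Of the 9 macrophage markers tested, 9 had positive values and 4 had the JIB-04 libraries all above the vehicle ones, against 10.7% of all genes tested. Their sum was 337 to 531 CPM in JIB-04 and 241 to 340 CPM in vehicle libraries, and the groups overlapped, with 336.8 CPM in JIB-04 replicate 1 and 339.5 CPM in vehicle replicate 1. None of the markers tested was at 0 in any library. Their part in the Myl1 values was not tested.

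Myl4 (chromosome 11, 104550663 to 104587219, plus strand) encodes the essential light chain of atrial and embryonic heart muscle. It had 8.79, 6.59 and 7.13 CPM in JIB-04 replicates 1, 2 and 3, against 11.9 and 7.59 CPM in vehicle replicates 1 and 2. Vehicle replicate 1 was the highest library, and vehicle replicate 2 lay within the JIB-04 range. JIB-04 over vehicle gave -0.31 on the log2 scale (SE 0.20, limma adjusted p = 0.83), and -0.02 without vehicle replicate 1. Reads from 4 annotated transcripts or pseudogenes on the opposite strand of Myl4 could be included, since the strand setting of the counting is not given in the sources used here.

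Myl7 (chromosome 11, 5896637 to 5898782, minus strand), the regulatory light chain of the atrium, had 1.80, 1.34 and 1.19 CPM in JIB-04 replicates 1, 2 and 3, from 60, 50 and 42 reads. Vehicle replicates 1 and 2 had 2.15 and 1.34 CPM, from 80 and 41 reads. The groups overlapped, with a log2 fold change of -0.16 (SE 0.17, limma adjusted p = 0.882). Without vehicle replicate 1 it was 0.06. On the log2(CPM + 1) scale used for these fold changes, differences of genes near 1 CPM are understated, and edgeR on the reads gave -0.27 for Myl7.

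Atrial and ventricular light chains were also compared within each library, where scaling between libraries cancels. Per kilobase, Myl2 stood 1778 to 3232 times above Myl7 and Myl3 310 to 526 times above Myl4. The log2 ratio of Myl7 to Myl2 was -11.16, -11.09 and -11.65 in JIB-04 replicates 1, 2 and 3, against -10.80 and -11.66 in vehicle replicates 1 and 2. The JIB-04 libraries lay inside the vehicle range, and the difference of means was -0.07 (exact permutation test over the 5 libraries, two-sided p = 1.0, where 0.1 is the smallest possible). The log2 ratio of Myl4 to Myl3 was -8.82, -8.84 and -8.83 in the JIB-04 libraries, against -8.28 and -9.04 in the vehicle libraries. The JIB-04 libraries lay close together (SD 0.0066) and between both vehicle libraries, with a difference of -0.17 (exact permutation p = 0.7).

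Partners of the light chains ranged from Mylk2, at 1.60 CPM in JIB-04 and 1.10 CPM in vehicle on average, to the heart myosin heavy chain Myh7, at 28710 CPM in JIB-04 and 28110 CPM in vehicle, and none passed the test. Of 12 genes for other light chains, light chain kinases and heart myosin heavy chains, 5 had positive and 7 negative values, with a median of -0.03 (0.02, with 7 positive, when scaled by plain read totals). Myl12a, a regulatory light chain of nonmuscle myosin, had 943 ± 83 CPM in JIB-04 and 1128 ± 32 CPM in vehicle (log2 fold change -0.26, limma adjusted p = 0.767), with the JIB-04 libraries all below the vehicle ones. Mylk3, the heart muscle kinase that phosphorylates regulatory light chains, had 577 ± 56 CPM in JIB-04 and 656 ± 30 CPM in vehicle. Of the 10 ventricle-enriched genes, 7 had negative values and the median was -0.18. Pln had 5348 ± 601 CPM in JIB-04 and 6111 ± 269 CPM in vehicle, and Kcnj12, an inward rectifier potassium channel, 22.5 ± 6.0 CPM in JIB-04 and 30.0 ± 0.7 CPM in vehicle. The median of the 11 pan-myocyte genes was -0.14, with 11 of 11 negative values. Scaled by plain read totals it was -0.08 with 2 positive values, and without vehicle replicate 2 it was -0.07 with 2 positive values.

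The remaining contractile and calcium genes of the set were scarcely detected. Sln (chromosome 9, 53850251 to 53853849, plus strand) encodes sarcolipin. It had 0.210, 0.134 and 0.142 CPM in JIB-04 replicates 1, 2 and 3, from 7, 5 and 5 reads, against 0.188 and 0.0977 CPM in vehicle replicates 1 and 2, from 7 and 3 reads. With 27 reads in all, it did not reach the read minimum for testing, and a difference between the groups was not detectable at this depth. The log2 ratio of Sln to Pln was -12.38, -12.70 and -12.82 in JIB-04 replicates 1, 2 and 3, against -12.54 and -13.58 in vehicle replicates 1 and 2, and the groups overlapped (difference 0.43, exact permutation p = 0.5). Each of these ratios rests on 3 to 7 Sln reads, whose counting error alone is wide. Atp2a2, the calcium pump of heart muscle that both small proteins inhibit, belongs to a list of 8 pump genes and regulators of which 7 were tested and 0 passed (median -0.09). Hrc, a calcium-binding protein of the sarcoplasmic reticulum, had 609 ± 129 CPM in JIB-04 and 706 ± 17 CPM in vehicle.

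Mybphl (chromosome 3, 108364911 to 108380057, plus strand) encodes a myosin binding protein found in atria and the conduction system. It had 2 reads each in JIB-04 replicates 1 and 2 (0.0600 and 0.0536 CPM), 0 reads in JIB-04 replicate 3 and 0 reads in both vehicle libraries. With 3 reads as the limit that a count of 0 allows, this is 0.0852 CPM in JIB-04 replicate 3 and 0.0806 and 0.0977 CPM in vehicle replicates 1 and 2. The two-sided Poisson intervals plotted for these counts of 0 reach 0.105 CPM in JIB-04 replicate 3 and 0.0991 and 0.120 CPM in vehicle replicates 1 and 2. Every library was under the limit of 3 reads, and no fold change is given. Gm12522, annotated as a processed transcript, overlaps Mybphl on the other strand. Mybpc3, the cardiac myosin binding protein C, had 6420 ± 397 CPM in JIB-04 and 7340 ± 460 CPM in vehicle, with the JIB-04 libraries all below the vehicle ones (log2 fold change -0.19, limma adjusted p = 0.879). Mybph, the skeletal myosin binding protein H, had 3 reads over the 5 libraries.

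Bmp10 (chromosome 6, 87429002 to 87434512, plus strand) encodes a secreted ligand of the transforming growth factor family that acts through the receptor Acvrl1. It had 0.120, 0.241 and 0.994 CPM in JIB-04 replicates 1, 2 and 3, from 4, 9 and 35 reads. Vehicle replicates 1 and 2 had 0.134 and 0.228 CPM, from 5 and 7 reads. JIB-04 replicate 3 stood apart, with a 95% exact Poisson interval of 0.693 to 1.38 CPM, above the upper bounds of the other libraries, of which the highest was 0.470 CPM in vehicle replicate 2. These intervals cover counting error only. The summed macrophage markers were also highest in JIB-04 replicate 3, at 530.9 CPM. They stood at 463.9 CPM in JIB-04 replicate 2 and at 241.3 CPM in vehicle replicate 2, where Bmp10 had 0.241 and 0.228 CPM. Their part in the Bmp10 value was not tested. JIB-04 replicates 1 and 2 lay on both sides of the vehicle libraries, so the groups overlapped, and Bmp10 did not reach the read minimum in enough libraries to be tested.

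Other genes linked to Bmp10 did not pass the test. The list of 17 held a related ligand, receptors, signal carriers, targets and the muscle genes Tcap and Myocd. Of these, 16 were tested, with 8 positive and 8 negative values, a median of -0.01 and 0 past the threshold. Smad5, which carries the signal to the nucleus, had 65.8 ± 0.7 CPM in JIB-04 and 62.4 ± 0.1 CPM in vehicle. Tcap, a Z disc protein that binds Bmp10, had 1637 ± 468 CPM in JIB-04 and 2236 ± 107 CPM in vehicle, and Myocd, a coactivator of muscle genes, 61.4 ± 7.3 CPM in JIB-04 and 72.9 ± 4.2 CPM in vehicle.

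**Figure D3:**
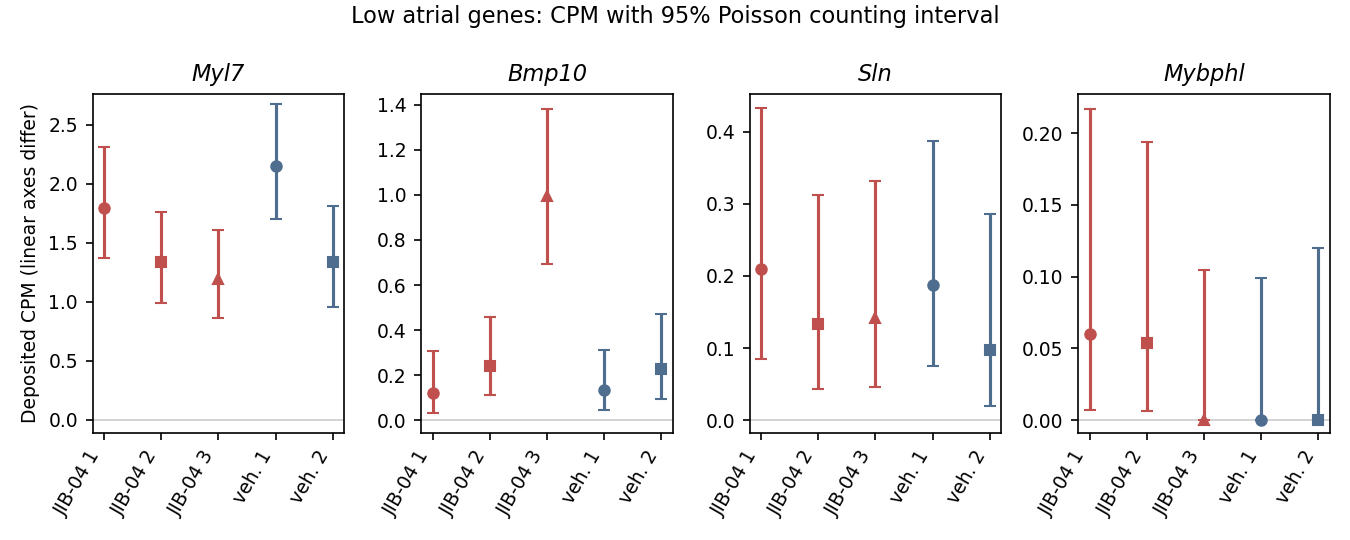
Deposited CPM of Myl7, Bmp10, Sln and Mybphl in each library (linear axes that differ between panels), JIB-04 libraries left of vehicle libraries, with 95% exact Poisson intervals of the read counts. Bmp10 in JIB-04 replicate 3, at 0.994 CPM, has an interval above those of the other libraries, while the intervals of Sln overlap in every pair of libraries.

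The acetylcholine-gated channel genes had higher median levels per kilobase than Myl7, Sln, Mybphl and Bmp10, and neither passed the test. Kcnj5 (chromosome 9, 32314783 to 32344237, minus strand), which encodes the GIRK4 subunit, had 75.0, 47.4 and 55.5 CPM in JIB-04 replicates 1, 2 and 3, against 60.1 and 56.0 CPM in vehicle replicates 1 and 2. JIB-04 replicate 1 was the highest library and JIB-04 replicate 2 the lowest, with both vehicle libraries between them. JIB-04 over vehicle gave 0.01 on the log2 scale (SE 0.18, limma adjusted p = 0.995), and it was -0.17 without JIB-04 replicate 1.

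Kcnj3 (chromosome 2, 55437156 to 55595525, plus strand), which encodes the GIRK1 subunit, had 14.6, 4.34 and 6.34 CPM in JIB-04 replicates 1, 2 and 3, against 11.2 and 10.6 CPM in vehicle replicates 1 and 2. Its highest and lowest libraries were those of Kcnj5, and they differed 3.36-fold for Kcnj3 and 1.58-fold for Kcnj5. JIB-04 replicates 2 and 3 lay below both vehicle libraries and JIB-04 replicate 1 above them. JIB-04 over vehicle gave -0.48 on the log2 scale (SE 0.41, limma adjusted p = 0.861). It was -0.92 without JIB-04 replicate 1 (limma adjusted p = 0.0739) and -0.15 without JIB-04 replicate 2. Without JIB-04 replicate 1, 2698 of 14414 genes had an unadjusted limma p under 0.05, against 928 with all libraries. The limma adjusted p of the other tested members was also lower there. It was 0.138 for Myl1, 0.309 for Myl4, 0.468 for Myl7 and 0.351 for Kcnj5. The long noncoding RNA gene Gm26794 overlaps Kcnj3 on the opposite strand.

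A list of 14 genes covered receptors that act on this channel, G proteins, their regulators and related channel subunits. Of these, 12 were tested, with 6 positive and 6 negative values, a median of 0.005 and 0 past the threshold. Gnao1, an inhibitory G protein alpha subunit, had 61.1 ± 3.2 CPM in JIB-04 and 69.9 ± 0.9 CPM in vehicle (log2 fold change -0.19, limma adjusted p = 0.748). Gng2, a G protein gamma subunit, had 6.56 ± 1.15 CPM in JIB-04 and 4.72 ± 0.28 CPM in vehicle (0.39, limma adjusted p = 0.748). Gnai3, another inhibitory alpha subunit, had 35.2 ± 3.3 CPM in JIB-04 and 30.8 ± 0.7 CPM in vehicle. Rgs6, which shortens the channel's response in the heart, had 13.4 ± 1.5 CPM in JIB-04 and 15.9 ± 1.5 CPM in vehicle. The other channel subunits of the family, Kcnj6 and Kcnj9, had 1 and 4 reads over the 5 libraries.

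Across the set, 5 of 8 genes passed the filter on low reads, and 4 of these 5 had negative values with a median log2 fold change of -0.31. Over all genes tested the median was -0.01, and 46.9% of values were positive. The median of so few genes moved with single libraries, at -0.02 without vehicle replicate 1 and between -0.52 and -0.15 when any other library was left out. Relative to the vehicle mean, the median over the 5 genes was 0.05, -0.47 and -0.37 in JIB-04 replicates 1, 2 and 3, and 0.22 and -0.22 in vehicle replicates 1 and 2. JIB-04 replicate 2 was the lowest library for 4 of the 5 genes and vehicle replicate 1 the highest for 3. The pan-myocyte genes were lowest in JIB-04 replicate 2 as well, at 79480 CPM, while their sum in vehicle replicate 1, at 89310 CPM, was below that in vehicle replicate 2, at 102300 CPM. Ppp3ca was also lowest in JIB-04 replicate 2, at 4341 CPM, and highest in vehicle replicate 2, at 8022 CPM. The part of these genes in the pattern was not tested.

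**Figure D4:**
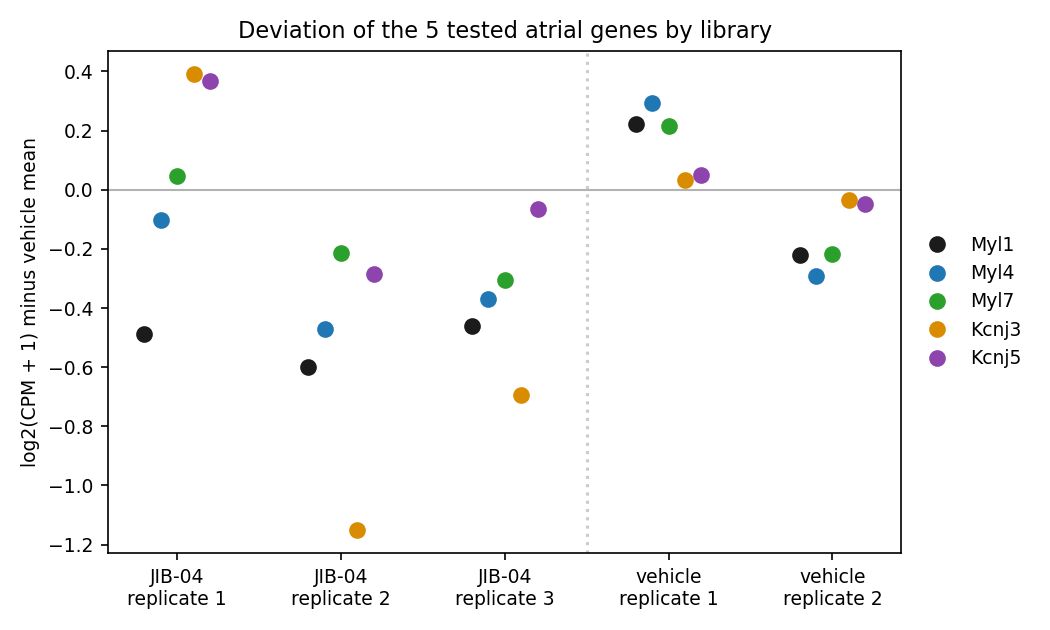
Difference of log2(CPM + 1) from the vehicle mean (y axis) for the 5 tested atrial genes in each library, JIB-04 libraries left and vehicle libraries right. Myl1 lies between -0.60 and -0.46 in all JIB-04 libraries, while Kcnj3 spans -1.15 to 0.39 there; with 2 vehicle libraries, their values mirror each other around 0.

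Other genes enriched in atria were examined beside the set. Of 15 such genes, 15 were tested, 5 had positive and 10 negative values, the median was -0.07 and 0 passed limma. In 5 of them the JIB-04 libraries all lay below the vehicle ones, and in 0 above, against 12% below and 10.7% above over all genes tested. Such counts were not particular to atrial genes. Of the 10 ventricle-enriched genes, 3 lay below and 0 above, and of the 11 pan-myocyte genes, 2 lay below and 0 above. Kcna5, a voltage-gated potassium channel of the atrial action potential, had 5.68 ± 0.15 CPM in JIB-04 and 8.79 ± 0.04 CPM in vehicle (log2 fold change -0.55, limma adjusted p = 0.399), and DESeq2 called it lower. Cacna1g, a T-type calcium channel, had 118 ± 5 CPM in JIB-04 and 140.4 ± 6.5 CPM in vehicle (-0.25, limma adjusted p = 0.577). Sbk3, a protein kinase, had 0.742 ± 0.361 CPM in JIB-04 and 1.46 ± 0.24 CPM in vehicle, and Stard10, a lipid transfer protein, 7.49 ± 1.21 CPM in JIB-04 and 9.41 ± 0.41 CPM in vehicle.

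Transcription factors that set atrial or ventricular identity were examined as a list of 15, of which 14 were tested, 5 had positive and 9 negative values and 0 passed (median -0.03). Hand2, a factor of the embryonic ventricles, had 91.0 ± 15.2 CPM in JIB-04 and 116.0 ± 1.2 CPM in vehicle (log2 fold change -0.36, limma adjusted p = 0.748). Tbx20, a repressor and activator in heart muscle, had 285 ± 8 CPM in JIB-04 and 255 ± 17 CPM in vehicle. Nr2f2, which maintains atrial identity in the mouse, had 13.6 ± 0.9 CPM in JIB-04 and 15.3 ± 0.6 CPM in vehicle (limma adjusted p = 0.821). In 2 of the 14 tested factors, Hand2 and Nr2f2, the JIB-04 libraries all lay below the vehicle ones. In 2 others, Tbx20 and Gata4, they all lay above. Over all genes tested, 12% lay below in this sense and 10.7% above.

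**Figure D5:**
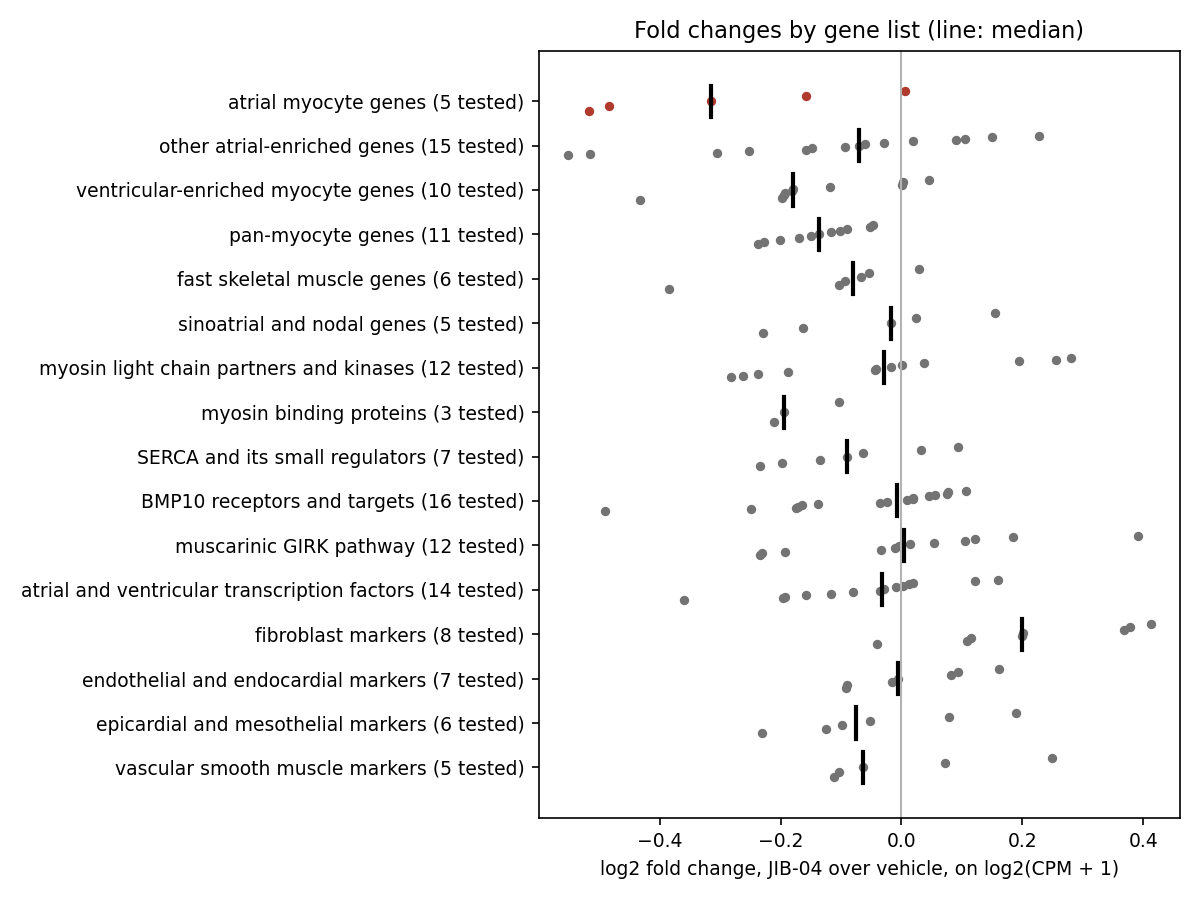
Log2 fold change of JIB-04 over vehicle for each gene tested in the lists drawn, with a line at the list median. The red blood cell markers (median -1.22) and macrophage markers (median 0.65), whose medians lie further from 0, are not drawn. The adipocyte and lung epithelial lists, with 1 and 0 genes tested, are not drawn either. The atrial myocyte genes (top, 5 tested) have a median of -0.31, and no gene in the plot passed limma's threshold.

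The genes whose profile over the 5 libraries lay closest to the average of the 8 atrial genes were Mkl2, Rab11fip2, Lonrf2, Zmym6 and Igdcc4. Likeness was the root mean square distance between centred log2(CPM + 1) profiles, 0.0231 for Mkl2 and 0.0352 for Igdcc4, among 9032 genes with a mean of at least 10 CPM. The average profile itself was 0.12, -0.24 and -0.06 in JIB-04 replicates 1, 2 and 3, and 0.19 and -0.02 in vehicle replicates 1 and 2. It includes the untested Sln, Mybphl and Bmp10 and is not a pattern that the members share. Relative to the vehicle mean, Kcnj3 lay at -1.15 in JIB-04 replicate 2 and Bmp10 at 0.76 in JIB-04 replicate 3. None of the 5 named genes was among the 5 closest to any single member. Mkl2 had 71.9, 57.6 and 63.7 CPM in the JIB-04 libraries, against 75.1 and 67.5 CPM in the vehicle libraries.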

How the data were processed

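RNA was extracted with Trizol and made into stranded TruSeq libraries, as the labels' protocols state. For alignment and counting, the submitters' processing notes list TopHat2 (2.0.12), featureCounts, Subread, Picard (1.127), FastQC (0.11.2), edgeR and the mm10 build, with no roles or order. The deposited values, headed CPM, were treated as a normalised signal because the authors' columns summed to 954981 to 1046902. Whole reads were recovered from their steps (100% of values within 0.01 of a whole number). A blank row (1 per file) was left out. Gene starts in the files were 1 base below RefSeq for 9785 of 17918 matched symbols, against 660 equal, so 1 was added. Exon lengths are GENCODE M21 exons within each file's gene span.

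Genes were kept by filterByExpr (at least 10 reads in libraries of middling size, 15 in total), 14414 in all. In R 4.3.3, limma-trend (limma 3.58.1) was fitted to log2(CPM + 1), Benjamini-Hochberg adjusted over all genes, with 3 residual degrees of freedom. The fit was tested on simulated data. edgeR 4.0.16, DESeq2 1.42.0 and limma-voom were run on recovered reads. Named genes are the 8 members, up to 4 tested genes of smallest p from each of 19 other lists, those in the ratios, and 5 nearest profiles; scarce or abundant list genes quoted beyond these (Myh1, Myh2, Nppa, Atp2a2, Mybph, Kcnj6, Kcnj9, Isl1, Vsnl1, Sftpb, Sftpc, Scgb1a1, Mylk2, Myh7, Adipoq, Plin1, Cidec, Hba-a1) were chosen after their values were seen. Members, lists and tests were chosen with earlier results of these data known. The labels give no batch.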

Additional observations from a re-analysis of the deposited data

How the results depend on the processing

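limma called 0 genes under every alternative that kept all libraries, with 532 to 1145 at an unadjusted p under 0.05, and so did edgeR (946) and limma-voom (872). DESeq2 called 85 genes, 69 higher and 16 lower. With 1 library left out, limma called 0 to 29 genes, the 29 without JIB-04 replicate 1, and the cause was not tested. Where 1 vehicle library is left out, the remaining one is assumed to vary like the JIB-04 libraries. None of the 5 tested atrial genes was called in any of the 14 alternatives, and Sln, Mybphl and Bmp10 could be fitted only without the filter or with DESeq2.

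The log2 fold changes of Myl1 (-0.74 to -0.29), Myl4 (-0.61 to -0.02) and Kcnj3 (-0.92 to -0.15) were negative in all 14 alternatives, with adjusted p from 0.0679 upward. Myl7 was reversed without vehicle replicate 1 (0.058; range -0.37 to 0.058), and Kcnj5 without JIB-04 replicate 1 (-0.17) or vehicle replicate 2 (-0.04; range -0.17 to 0.15). The median of the 5 tested genes ran from -0.519 to -0.0225 with 1 library left out. With 1 library left out, the difference in log2 ratio ran from -0.50 to 0.36 for Myl7 to Myl2, from -0.55 to 0.21 for Myl4 to Myl3 and from -0.0925 to 0.943 for Sln to Pln. That of Myl7 to Myl2 was also positive with a pseudocount of 1 (0.0225). Scaling by plain read totals moved the median of all genes to 0.04, against -0.01, and the medians of the light chain partners (0.02), Bmp10 pathway (0.045), transcription factors (0.02), nodal genes (0.003) and endothelial markers (0.05) were then positive.

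The replicate number used as a block gave 0 calls and a log2 ratio difference of 0.11 for Myl7 to Myl2. Same-numbered libraries of both groups deviated with a correlation of -0.13. With 2 vehicle libraries, whose deviations mirror each other, this value cannot decide whether the numbers are pairs. In the other fits the labels' numbers were not taken as pairs. Depth limits Sln, Mybphl and Bmp10, with 27, 4 and 60 reads in all. Fitted without a filter, where the pseudocount compresses such low values, Sln had a log2 fold change of 0.02 (limma adjusted p = 0.924) and Bmp10 of 0.25 (limma adjusted p = 0.914). DESeq2 gave 0.17 for Sln (SE 0.996) and 1.34 for Bmp10 (SE 1.04), both with an adjusted p of 1.0. No fold change is given for Mybphl.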

Other observations

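Genes of the sinoatrial node and conduction system, which lie in or next to the atria, were only partly detected. Of 8 such genes, 5 were tested, with 2 positive and 3 negative values, a median log2 fold change of -0.02 and 0 past limma's threshold. Isl1 and Vsnl1 had 1 and 3 reads over the 5 libraries. Hcn4, the pacemaker channel, had 19.0 ± 3.9 CPM in JIB-04 and 22.3 ± 3.1 CPM in vehicle. Tbx18, a factor of the sinus node head and the epicardium, had 18.0 ± 1.0 CPM in JIB-04 and 16.1 ± 0.6 CPM in vehicle, with the JIB-04 libraries all above the vehicle ones. Tbx3, a factor of the conduction system, had 10.2 ± 0.2 CPM in JIB-04 and 11.6 ± 1.8 CPM in vehicle, with the JIB-04 libraries all below. The 4 myosin binding protein genes gave 3 tested values, all negative, with a median of -0.19.

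Tissue that can be carried along with the atria was also looked for. Epicardial and mesothelial markers summed to 5.28 to 9.78 CPM in JIB-04 and 7.20 to 8.90 CPM in vehicle libraries (6 tested, median -0.08, and 0.09 without vehicle replicate 1). Of the lung epithelial markers in the files, 0 were tested. Scgb1a1 had 14 reads, at 0.0900 and 0.295 CPM in JIB-04 replicates 1 and 2 and none in the other libraries, Sftpb had 4 reads and Sftpc 0. Of the adipocyte markers, Fabp4 alone was tested, a gene also used by capillary endothelium, while Adipoq, Plin1 and Cidec stayed at or under 0.130 CPM. Endothelial markers (7 tested, median -0.01) and vascular smooth muscle markers (5 tested, median -0.06, and 0.10 without vehicle replicate 1) had 0 genes past the threshold. Fibroblast markers (8 tested, median 0.20) had 7 positive values and 0 past limma, with Lum, a matrix proteoglycan, at 164 ± 5 CPM in JIB-04 and 127 ± 6 CPM in vehicle (limma adjusted p = 0.399). DESeq2 called Lum, and also the macrophage genes Cx3cr1 and Emr1, higher.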
